A study of Mus musculus with 12 samples.

Results

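Growth factors of blood and lymphatic vessels and of fat progenitors were read from 10 ligand genes, Vegfa, Vegfb, Vegfc, Vegfd, Angpt1, Angpt2, Fgf1, Fgf2, Fgf7 and Fgf10, out of 55536 genes in each deposited table of the stromal vascular fraction (SVF). They were taken by their gene symbols, all 10 stood in both tables, and 10 of 10 passed the filter on low values in both comparisons. The SVF consists of the cells of fat other than the floating, lipid-filled adipocytes, and it holds progenitors, mural cells, endothelium and immune cells. Polyadenylated RNA was sequenced from the SVF of inguinal white adipose tissue (iWAT) of 12 male mice kept at room temperature on a mixed C57BL6/J-129SV background, with 1 library per mouse. The first group was 4 Pdgfrβ-KO mice of 12 months, which carried Sma-CreERT2, an R26 reporter and Pdgfrβ fl/fl and had been given tamoxifen. The second was 4 controls of 12 months, described in the study as Sma-CreERT2 with an R26 reporter and tamoxifen in the knockout experiment. The third was 4 controls of 2 months. The labels call both control groups wild type, and whether the 2-month mice carried the Cre or had tamoxifen is not given in the sources used here. Because Cre is driven by the promoter of smooth muscle actin (Sma, the product of Acta2), the deletion reaches progenitors and vascular smooth muscle that use this promoter and leaves Pdgfrβ in other cells.

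Vascular endothelial growth factors (VEGFs) are secreted proteins read by tyrosine kinase receptors of the endothelium. VEGF-A acts on Kdr and drives sprouting of blood capillaries, VEGF-B binds Flt1, and VEGF-C and VEGF-D bind Flt4, which is best known for the growth of lymphatic vessels. The angiopoietins share the receptor Tek (Tie2): angiopoietin 1, largely a product of perivascular cells, keeps vessels quiet, and angiopoietin 2, largely a product of endothelium, can oppose it. Fibroblast growth factors (FGFs) bind receptors together with heparan sulphate. FGF1 and FGF2 are mitogens of many cell types, FGF1 also takes part in the remodelling of fat, and FGF7 and FGF10 are made by mesenchyme and read by the epithelial form of Fgfr2. Fgf10 is also expressed by adipocyte progenitors.

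Upstream sequence is shown for Vegfa, Vegfc and Fgf10, the VEGF genes that were lower in Pdgfrβ-KO SVF and the FGF gene that was higher. RefSeq windows (GRCm38.p6) were found for 7 of the 10 genes, Vegfa, Vegfb, Vegfc, Vegfd, Fgf2, Fgf7 and Fgf10. For Vegfa there were 2 RefSeq windows, and only the first listed was shown and searched. Each run below is the 250 bases before a RefSeq start, 5′ to 3′ on the strand of the gene. Each of these 3 runs held 0 exons of GENCODE vM21. They lie at chr17:46032378-46032627 (minus strand) for Vegfa, chr8:54077282-54077531 (plus strand) for Vegfc and chr13:118714449-118714698 (plus strand) for Fgf10. The Fgf10 window lies inside the annotated gene, which starts further upstream. Capitals mark GGGCGG, the GC box, on either strand.
Vegfa: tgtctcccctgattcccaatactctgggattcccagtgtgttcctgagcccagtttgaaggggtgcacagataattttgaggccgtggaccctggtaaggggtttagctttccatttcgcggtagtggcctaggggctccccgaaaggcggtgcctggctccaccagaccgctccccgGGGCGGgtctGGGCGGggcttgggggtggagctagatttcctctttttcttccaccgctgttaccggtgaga
Vegfc: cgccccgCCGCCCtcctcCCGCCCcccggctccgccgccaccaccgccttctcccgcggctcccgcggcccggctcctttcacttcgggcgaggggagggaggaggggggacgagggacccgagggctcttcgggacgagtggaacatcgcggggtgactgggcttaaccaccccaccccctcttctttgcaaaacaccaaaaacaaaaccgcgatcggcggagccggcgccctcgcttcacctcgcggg
Fgf10: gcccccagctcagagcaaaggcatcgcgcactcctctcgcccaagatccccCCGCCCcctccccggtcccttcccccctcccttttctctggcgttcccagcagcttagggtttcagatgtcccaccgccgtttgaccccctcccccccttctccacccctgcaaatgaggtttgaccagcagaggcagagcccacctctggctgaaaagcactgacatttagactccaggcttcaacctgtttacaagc
The motifs searched on both strands were ACGTG (the core of the hypoxia response element), GCGTG (a variant of it), TGANTCA (an AP-1 site) and GGGCGG, and no match of a motif overlapped a match of another in the 7 windows. GGGCGG occurred 2 times for Vegfa, 2 times for Vegfc and 1 time for Fgf10. It also occurred 4 times for Vegfb and 1 time for Fgf2, which were not called after knockout, and 0 times for Fgf7. It was in 32.9% of the 27025 upstream windows of the same length. ACGTG was in 0 of the 7 windows, against 16.6% of all windows, and TGANTCA in 0 of the 7, against 6.87%. GCGTG, in 28.2% of all windows, occurred 2 times for Vegfb, 1 time for Fgf2 and 1 time for Fgf7. The Vegfd window held 0 matches to the 4 motifs. A match is a description of letters, and a window with no match says nothing about a factor.

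Values are normalized counts, reads per gene that the authors scaled by a size factor for each library and then rounded. Estimated from the rounding, the libraries hold 13.78, 15.6 and 16.91 M counts for Pdgfrβ-KO replicates 1 to 3, 20.95 to 29.03 M for the 12-month controls and 21.37 to 24.84 M for the 2-month controls, so these 3 Pdgfrβ-KO libraries were shallower than every control. The estimate for Pdgfrβ-KO replicate 4, 19.97 M, is less certain. Pdgfrb itself, the targeted gene, had 1882, 2145, 1707 and 1749 in Pdgfrβ-KO libraries, against 3000, 4380, 3258 and 2399 in 12-month controls and 2536, 2367, 2349 and 2407 in 2-month controls. It was lower in all Pdgfrβ-KO libraries than in any control (log2 fold change -0.77, adjusted p = 0.016 from limma). In SVF RNA, fewer cells of a type and less RNA per cell cannot be told apart, for these ligands as for any gene.

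Per length, Vegfa was the most abundant of the 10 ligand transcripts in every group. Vegfa averaged 380 normalized counts per kb of exon in Pdgfrβ-KO, 501 in 12-month control and 582 in 2-month control SVF. In 2-month controls Vegfc came next at 197 ± 27.1 per kb (SD, n = 4), then Angpt2 at 143 ± 17.3 and Vegfb at 117 ± 8.67, and Fgf2 was lowest at 36.5 ± 10.6. In 12-month controls Vegfd (195 ± 20.3) stood beside Vegfc (178 ± 35.1) and Vegfb (159 ± 21.8), neighbours that lay within their spread, and Fgf10 was lowest at 29.0 ± 4.42. In Pdgfrβ-KO SVF Vegfd was second at 229 ± 31.5, followed by Vegfb at 151 ± 35 and Fgf7 at 142 ± 25.7, again within their spread. Fgf10 followed at 87.3 ± 36.9 per kb, beside Vegfc at 79.4 ± 20.7, and Angpt1 (35.0 ± 8.24) and Fgf1 (33.9 ± 3.48) were lowest.

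**Figure D1:**
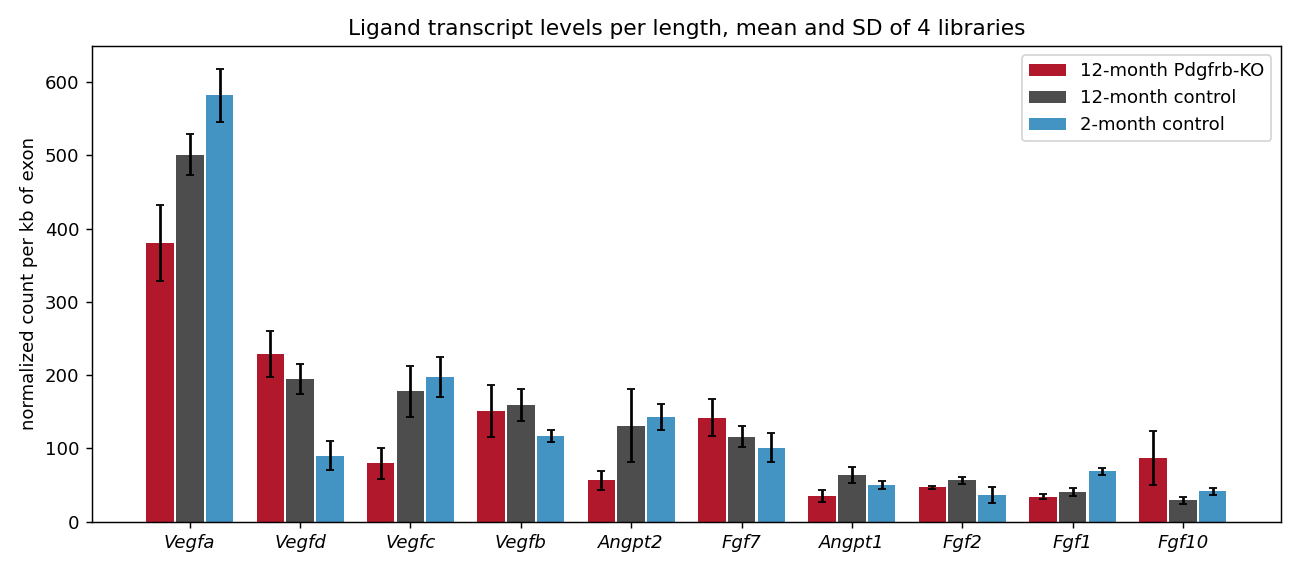
Normalized counts per kb of exon (y axis) of the 10 ligand genes (x axis, in the order of the 12-month control means), as means with SD over 4 libraries for 12-month Pdgfrβ-KO, 12-month control and 2-month control SVF. Vegfa is highest in each group, at 380, 501 and 582 per kb, and the Vegfc bar is 79.4 per kb in Pdgfrβ-KO against 178 per kb in 12-month controls.

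The comparison of 12-month Pdgfrβ-KO with 12-month controls asked what the loss of Pdgfrβ from Sma-expressing cells changed in aged fat. Vegfc, Angpt1, Angpt2 and Vegfa were lower in Pdgfrβ-KO SVF, and Fgf10 was higher. Of the 10 ligand genes, 5 were called at an adjusted p under 0.05 (limma, Benjamini-Hochberg over 16344 genes), 1 higher and 4 lower, where 9.42% of all tested genes were called, 4.96% higher and 4.46% lower. In 6 of 10 the groups did not overlap, against 17.1% of all tested genes, with 1 higher and 5 lower in Pdgfrβ-KO, beside 9.05% and 8.06% of all tested genes. The median log2 fold change of the 10 was -0.26, beside -0.013 for all genes. Without 12-month control replicate 3, 3 of the 10 were called, 2 of them lower.

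Vegfc (chr8:54077606-54187096, plus strand), the ligand of Flt4, was the VEGF with the larger decrease. Positions of genes are those of GENCODE vM21 on GRCm38. Vegfc had 181, 260, 138 and 199 normalized counts in the 4 Pdgfrβ-KO libraries, against 421, 537, 459 and 330 in the 12-month controls. Every Pdgfrβ-KO library lay below every control, and the highest, replicate 2, was under the lowest control, replicate 4. Vegfc averaged 194 ± 50.6 in Pdgfrβ-KO and 437 ± 86 in controls (SD, n = 4 each), a log2 fold change of -1.18 (95% confidence interval -1.63 to -0.73, adjusted p = 0.00555 from limma, and 0.0286 in an exact two-sided permutation test, the smallest p that 70 regroupings allow). It was called in all 19 alternative settings.

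Vegfa (chr17:46016993-46032369, minus strand), the main capillary growth factor, changed less. It had 1568, 1915, 1646 and 1376 in Pdgfrβ-KO libraries, against 2314, 2139, 2043 and 2092 in 12-month controls. The groups did not overlap, although Pdgfrβ-KO replicate 2 came close to the lowest control. The log2 fold change of Vegfa was -0.41 (95% confidence interval -0.66 to -0.16, adjusted p = 0.0479 from limma, exact permutation p = 0.0286), a decrease that kept its direction but lost its call in 9 of 19 alternatives. Without 12-month control replicate 1, 2, 3 or 4 the adjusted p of Vegfa was 0.127, 0.0965, 0.0921 or 0.0862, and without Pdgfrβ-KO replicate 1, 3 or 4 it was 0.117, 0.0765 or 0.0795 (limma). It was 0.0798 with no filter on low values and 0.0879 without trend and robust estimation, in a range of 0.0157 to 0.127.

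The other VEGF genes were not called. Vegfb (chr19:6982473-6987651, minus strand), which binds Flt1, had 229, 324, 215 and 199 in Pdgfrβ-KO libraries, against 274, 294, 216 and 239 in 12-month controls. The groups overlapped throughout, and the log2 fold change was -0.10 (95% confidence interval -0.48 to 0.29, adjusted p = 0.761 from limma). Vegfd (chrX:164373378-164402650, plus strand), the second ligand of Flt4, had 441, 564, 613 and 585 in Pdgfrβ-KO libraries, against 440, 469, 537 and 428 in 12-month controls. Here 3 Pdgfrβ-KO libraries were above all controls and replicate 1 was among them, with a log2 fold change of 0.23 (95% confidence interval -0.06 to 0.52, adjusted p = 0.296 from limma). As a ratio chosen after the values were seen, Vegfd to Vegfc was 2.17 to 4.44 in Pdgfrβ-KO libraries, 0.873 to 1.30 in 12-month controls and 0.324 to 0.64 in 2-month controls.

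Both angiopoietin genes were lower in Pdgfrβ-KO SVF. Angpt1 (chr15:42424723-42676977, minus strand), the activating ligand of Tek, had 144, 156, 240 and 188 in Pdgfrβ-KO libraries, against 331, 329, 402 and 267 in 12-month controls. The groups did not overlap, and Angpt1 averaged 182 ± 42.9 in Pdgfrβ-KO and 332 ± 55.2 in controls (SD, n = 4 each), with a log2 fold change of -0.88 (95% confidence interval -1.29 to -0.47, adjusted p = 0.0146 from limma, exact permutation p = 0.0286). It was called in all 19 alternatives.
Angpt2 (chr8:18690263-18741562, minus strand), the angiopoietin of activated endothelium, had 209, 144, 259 and 221 in Pdgfrβ-KO libraries, against 336, 731, 522 and 349 in 12-month controls. The controls were spread widely, with replicate 2 far above replicates 1 and 4, and even so the highest Pdgfrβ-KO library was under the lowest control. The log2 fold change of Angpt2 was -1.17 (95% confidence interval -1.73 to -0.61, adjusted p = 0.0174 from limma, exact permutation p = 0.0286). Without 12-month control replicate 3 its adjusted p was 0.0537, and it was called in the other 18 alternatives. With both genes lower, the ratio of Angpt2 to Angpt1 was 0.923 to 1.45 in Pdgfrβ-KO libraries and 1.02 to 2.22 in 12-month controls, which overlapped.

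Fgf10 (chr13:118669791-118792115, plus strand) was the ligand that rose. It had 278, 564, 531 and 234 normalized counts in Pdgfrβ-KO libraries, against 118, 163, 123 and 129 in 12-month controls. Pdgfrβ-KO replicates 2 and 3 were about as high as each other and well above replicates 1 and 4, and all 4 lay above every control. Fgf10 averaged 402 ± 170 in Pdgfrβ-KO and 133 ± 20.3 in controls (SD, n = 4 each), 2.81-fold higher, with a log2 fold change of 1.49 (95% confidence interval 0.89 to 2.09, adjusted p = 0.00722 from limma, exact permutation p = 0.0286). It was called in all 19 alternatives. The antisense gene Gm16263, which shares exons with Fgf10, had 12 to 35 in Pdgfrβ-KO libraries, against 8 to 17 in 12-month controls, and the sources used here do not say whether counting used strand.

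The other FGF genes were not called after knockout. Fgf7 (chr2:126034658-126091185, plus strand), which like Fgf10 is a mesenchymal factor for epithelium, had 344, 479, 541 and 484 in Pdgfrβ-KO libraries, against 393, 349, 434 and 329 in 12-month controls. Pdgfrβ-KO replicate 1 lay at the low end of the controls and the other 3 above them, with a log2 fold change of 0.28 (95% confidence interval -0.06 to 0.63, adjusted p = 0.269 from limma). Fgf1 (chr18:38838673-38929472, minus strand) had 182, 180, 167 and 212 in Pdgfrβ-KO libraries, against 198, 229, 262 and 202 in 12-month controls, a log2 fold change of -0.26 (adjusted p = 0.277 from limma). Fgf2 (chr3:37348346-37410108, plus strand) had 317, 302, 336 and 311 in Pdgfrβ-KO libraries, against 346, 389, 377 and 421 in 12-month controls. The Fgf2 values did not overlap and were tight, but the log2 fold change of -0.27 (95% confidence interval -0.52 to -0.03) had an adjusted p of 0.148 in limma, with an exact permutation p of 0.0286.

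**Figure D2:**
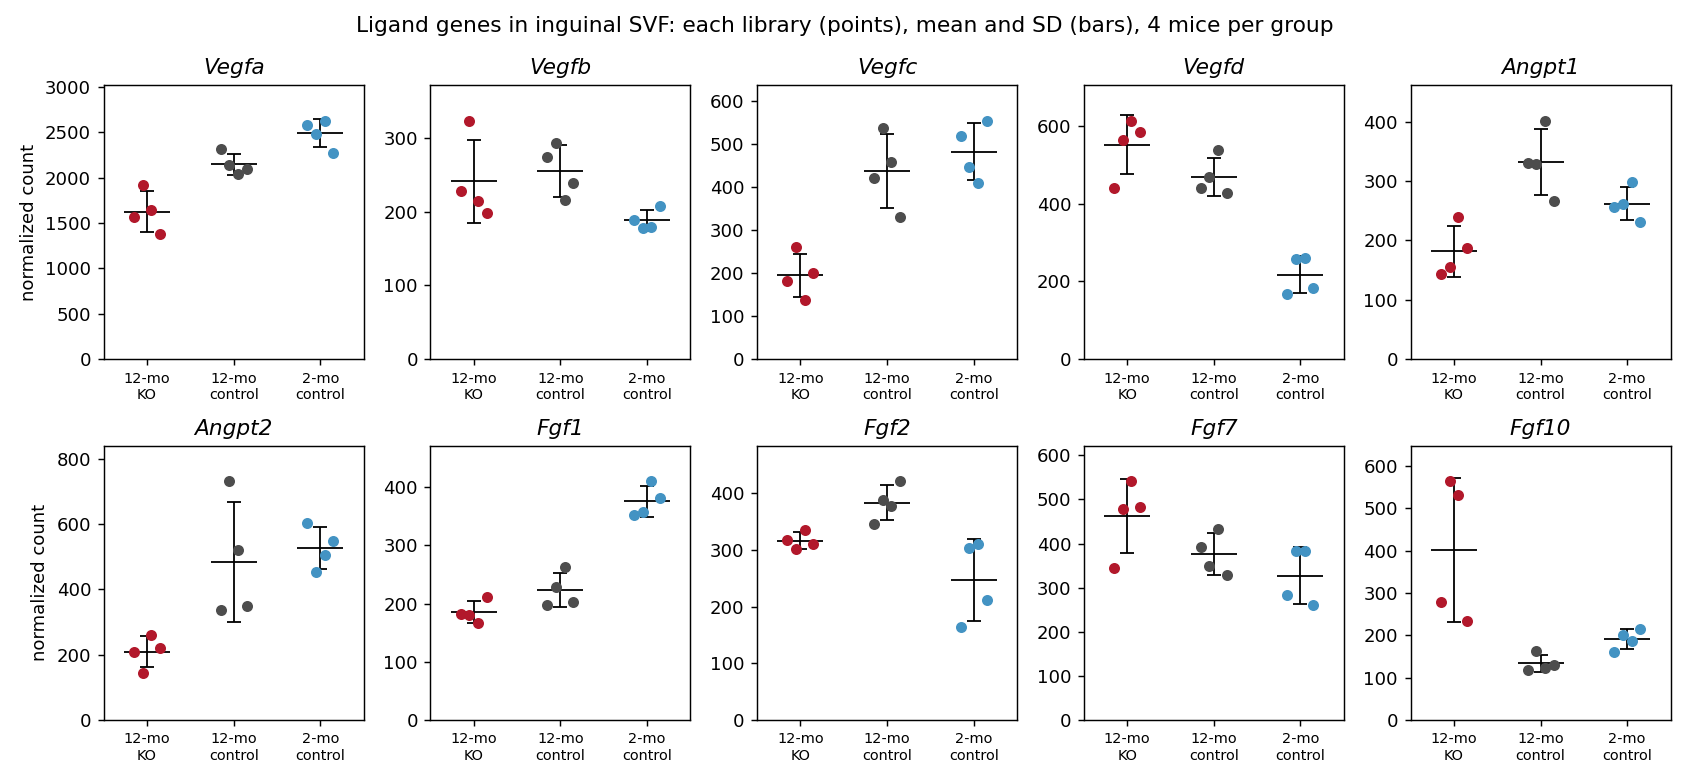
Normalized counts (y axis, from 0) of each of the 10 ligand genes in 12-month Pdgfrβ-KO, 12-month control and 2-month control SVF, with 1 point per library and bars for the mean and SD of 4 libraries. The Vegfc points of Pdgfrβ-KO (138 to 260) lie below both control groups, those of Fgf10 (234 to 564) lie above both, and those of Vegfd separate the 2-month controls (168 to 261) from both 12-month groups.

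The comparison of 12-month with 2-month controls asked what age changed in the same ligands, and it shares the 12-month controls with the comparison above. Vegfd, Fgf2 and Vegfb were higher at 12 months, and Fgf1 and Fgf10 were lower. Of the 10 ligand genes 5 were called, 3 higher and 2 lower, where 22.7% of 16399 tested genes were called, 11.3% higher and 11.4% lower. In 4 of 10 the ages did not overlap, against 24.8% of all tested genes, with 3 higher and 1 lower at 12 months, beside 12.3% and 12.5% of all tested genes. The median log2 fold change of the 10 was 0.03, beside -0.008 for all genes. Without 2-month replicate 2, 3 or 4 or 12-month replicate 1, 3 of the 10 were called. In each of these settings, and also without 12-month replicate 4, 1 called gene was lower.

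Vegfd had the largest change of the 10 with age. It had 440, 469, 537 and 428 in 12-month controls, against 168, 257, 261 and 183 in 2-month controls. All 12-month libraries were far above all 2-month ones, in which replicates 1 and 4 were lower than replicates 2 and 3. The means of Vegfd were 468 ± 48.8 at 12 months and 217 ± 48.6 at 2 months (SD, n = 4 each), 2.18-fold apart, with a log2 fold change of 1.13 (95% confidence interval 0.79 to 1.46, adjusted p = 0.000477 from limma, exact permutation p = 0.0286). It was called in all 19 alternatives.
Vegfb had 274, 294, 216 and 239 in 12-month controls, against 189, 178, 179 and 208 in 2-month controls. The ages did not overlap, but only narrowly, with 12-month replicate 3 just above 2-month replicate 4. The log2 fold change of Vegfb was 0.43 (adjusted p = 0.0305 from limma, exact permutation p = 0.0286), and its call was lost in 9 of 19 alternatives. Without 2-month replicate 1, 2 or 3 the adjusted p of Vegfb was 0.0544, 0.0782 or 0.0816, and without 12-month replicate 1 or 2 it was 0.071 or 0.0717 (limma). It was 0.0632 with no filter on low values, 0.0517 with quantile normalization, 0.0534 with the replicate number as a block and 0.0759 in a joint fit of the 12 libraries.

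Vegfa and Vegfc, both lower after knockout, were not called with age. Vegfa had 2314, 2139, 2043 and 2092 in 12-month controls, against 2584, 2485, 2629 and 2278 in 2-month controls. A single pair overlapped, 12-month replicate 1 and 2-month replicate 4, and the log2 fold change was -0.22 (95% confidence interval -0.39 to -0.04, adjusted p = 0.0778 from limma). Vegfc had 421, 537, 459 and 330 in 12-month controls, against 519, 447, 408 and 554 in 2-month controls, with a log2 fold change of -0.15 (adjusted p = 0.484 from limma). The ages overlapped for Vegfc over most of their range.
Neither angiopoietin gene was called. Angpt1 had 331, 329, 402 and 267 in 12-month controls, against 256, 261, 299 and 231 in 2-month controls, with a log2 fold change of 0.33 (95% confidence interval 0.04 to 0.63, adjusted p = 0.0948 from limma). Only 12-month replicate 4 lay among the 2-month values, and without it the adjusted p of Angpt1 was 0.0444, the single alternative of 19 with a call. Angpt2 had 336, 731, 522 and 349 in 12-month controls, against 604, 454, 504 and 547 in 2-month controls. The 12-month values lay on both sides of the 2-month ones, and the log2 fold change was -0.19 (adjusted p = 0.547 from limma).

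Among the FGF genes, Fgf1 fell with age. It had 198, 229, 262 and 202 in 12-month controls, against 353, 358, 410 and 382 in 2-month controls. The ages were wide apart, with means of 223 ± 29.6 at 12 months and 376 ± 26.1 at 2 months (SD, n = 4 each) and a log2 fold change of -0.76 (95% confidence interval -1.02 to -0.50, adjusted p = 0.00105 from limma, exact permutation p = 0.0286). Fgf1 was called in all 19 alternatives.
Fgf2 moved the other way, with 346, 389, 377 and 421 in 12-month controls, against 163, 304, 311 and 212 in 2-month controls. The 2-month libraries were uneven, replicates 1 and 4 being lower, as they were for Vegfd. The log2 fold change of Fgf2 was 0.67 (95% confidence interval 0.27 to 1.08, adjusted p = 0.0226 from limma, exact permutation p = 0.0286). The adjusted p of Fgf2 was 0.0695 without 2-month replicate 4, 0.0583 without 12-month replicate 4 and 0.0564 without trend and robust estimation. Nudt6, an antisense gene that shares exons with Fgf2, averaged 142 ± 12.7 at 12 months and 156 ± 12.2 at 2 months (SD, n = 4 each), and was not called (adjusted p = 0.463 from limma).
Fgf10 had 118, 163, 123 and 129 in 12-month controls, against 160, 200, 187 and 215 in 2-month controls. The ages met at 12-month replicate 2 and 2-month replicate 1, and the log2 fold change was -0.52 (95% confidence interval -0.84 to -0.19, adjusted p = 0.0264 from limma, exact permutation p = 0.0571). The call was lost in 6 of 19 alternatives, with an adjusted p for Fgf10 of 0.0709, 0.0614 or 0.0833 without 2-month replicate 2, 3 or 4, 0.0618 or 0.0587 without 12-month replicate 1 or 4 and 0.167 in a joint fit of the 12 libraries. The lowest Pdgfrβ-KO value of Fgf10, 234, was also above the highest 2-month value, 215, in a pair of groups that was not tested. Fgf7 had 393, 349, 434 and 329 in 12-month controls, against 283, 382, 382 and 261 in 2-month controls, with a log2 fold change of 0.21 (adjusted p = 0.311 from limma).

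**Figure D3:**
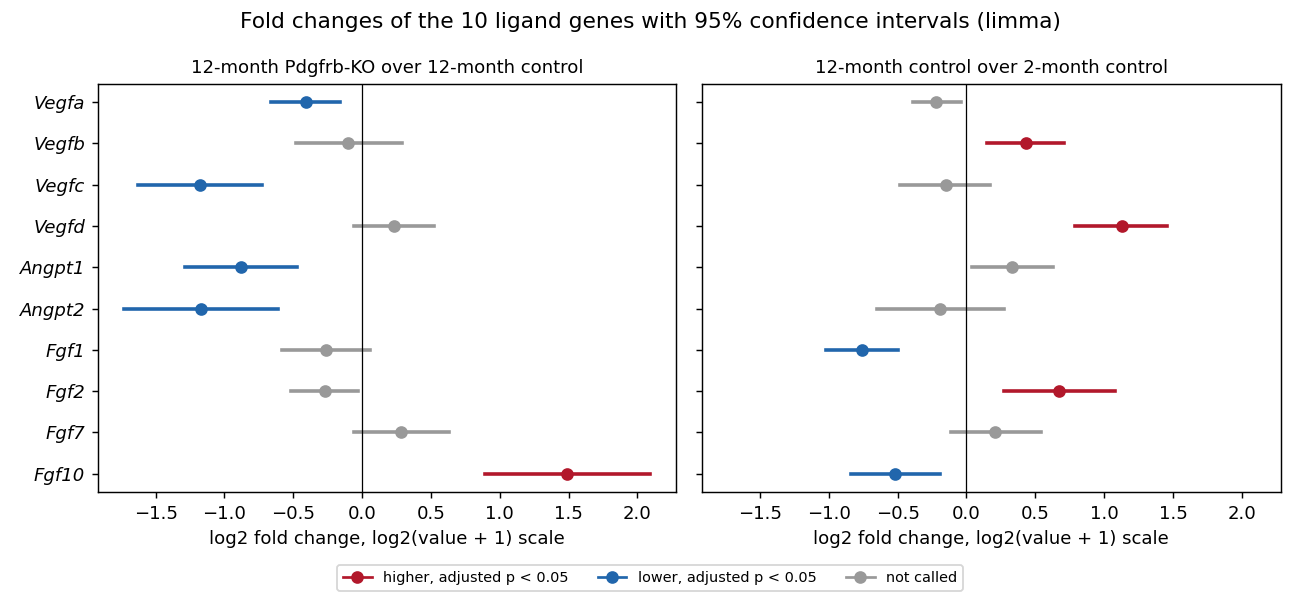
Log2 fold changes (x axis, on the log2(value + 1) scale) of the 10 ligand genes (y axis) with 95% confidence intervals, for 12-month Pdgfrβ-KO over 12-month control (left) and 12-month control over 2-month control (right). Points are coloured by the call of limma at an adjusted p under 0.05. Fgf10 stands at 1.49 on the left and -0.52 on the right, Vegfc at -1.18 and -0.15, and Vegfd at 0.23 and 1.13.

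The genes with the pattern most like each called ligand were found by the root mean square (RMS) difference of log2(value + 1), centred on its mean, over the 12 libraries and 11240 genes with a mean of at least 100. Nearest to Vegfa was Socs3, an inhibitor of cytokine signalling, at an RMS difference of 0.075 on the log2 scale, with means of 17652 in Pdgfrβ-KO, 23217 in 12-month controls and 26236 in 2-month controls. Nearest to Vegfc were Epb41l4a (0.139), the secreted factor Bmp4 (0.166) and the Notch ligand Dll4 (0.18). Bmp4 averaged 148 in Pdgfrβ-KO, 374 in 12-month controls and 346 in 2-month controls, and Dll4 averaged 1057, 2211 and 2316 in the same groups. For Vegfd these were Acss3 (0.17), Igsf6 (0.179) and Cass4 (0.18), and for Fgf1 the cadherin gene Cdh2 (0.085) and the myosin kinase gene Mylk (0.121). Nearest to Fgf2 were Krt80 (0.114), Adgrd1 (0.129) and Scara5 (0.137), and to Vegfb Thap4 (0.09). The nearest genes to Fgf10 lay further off than those of the other ligands, Olfml3 (0.3), angiotensinogen (Agt, 0.353) and the collagen gene Col13a1 (0.355). Nearest to Angpt1 was Uggt2 (0.145) and to Angpt2 Stard9 (0.228).

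The receptors of these ligands were read in the same libraries. Over all tested genes, 9.42% were called after knockout and 22.7% with age, shares to set beside the list counts that follow. Of 5 VEGF receptors and coreceptors (Flt1, Kdr, Flt4, Nrp1 and Nrp2), 0 were called in Pdgfrβ-KO by limma, and 1 had an unadjusted p under 0.05. Of 3 genes at the angiopoietin receptor, 2 were lower, the receptor gene Tek and Ptprb, which encodes the endothelial phosphatase that restrains it. Tek had 2664 to 3321 in Pdgfrβ-KO libraries, against 3566 to 4820 in 12-month controls, a log2 fold change of -0.48 (adjusted p = 0.0433 from limma). Ptprb had 4327 to 6159 in Pdgfrβ-KO libraries, against 6441 to 9978 in 12-month controls, a log2 fold change of -0.62 (adjusted p = 0.0434 from limma). The groups did not overlap for either gene, and both calls were lost in 7 of 19 alternatives, among them without 12-month control replicate 2 or 3 (Tek 0.107 or 0.128, Ptprb 0.107 or 0.123) and without Pdgfrβ-KO replicate 1, 2 or 3 (Tek 0.111, 0.0678 or 0.0915, Ptprb 0.103, 0.0772 or 0.0942). Of 5 tested FGF receptors, 0 were called by limma and 2 had an unadjusted p under 0.05.
With age, Kdr, the main receptor of VEGF-A, was lower, with 5841 to 8242 in 12-month controls, against 7833 to 11896 in 2-month controls (log2 fold change -0.44, adjusted p = 0.039 from limma). The ages overlapped, and the call was lost in 8 of 19 alternatives, with an adjusted p for Kdr of up to 0.111, the value without 2-month replicate 4. Leaving out 2-month replicate 1 or 3 gave 0.0712 or 0.0642, and 12-month replicate 1, 3 or 4 gave 0.0991, 0.0557 or 0.0769. Ptprb was lower too, with 6441 to 9978 at 12 months, against 10708 to 14684 at 2 months (log2 fold change -0.60, adjusted p = 0.0184 from limma, 0.0619 without 2-month replicate 4). Fgfr1, the FGF receptor of mesenchymal cells, was higher, with 3729 to 4600 in 12-month controls, against 2118 to 2789 in 2-month controls. Its log2 fold change was 0.70 (adjusted p = 0.00076 from limma), and it was called in all 19 alternatives.
Fgfr2, the receptor gene of FGF7 and FGF10, had 42 to 158 at 12 months, against 130 to 316 at 2 months (log2 fold change -1.30, adjusted p = 0.0264 from limma). The call was lost in 8 of 19 alternatives. The adjusted p of Fgfr2 was 0.127 with no filter on low values, 0.069 without trend and robust estimation and 0.0502 with the replicate number as a block. It was 0.078 or 0.0516 without 2-month replicate 3 or 4 and 0.0641, 0.0798 or 0.0655 without 12-month replicate 1, 2 or 3. Epithelial markers, summed over 5 genes, were at 123 to 1342 in 12-month controls and 289 to 1757 in 2-month controls, and at 109 to 183 in Pdgfrβ-KO libraries, with 2 of the 5 genes at 0 in all of those, and their part in the Fgfr2 levels was not tested. Fgfr4 had 13 to 43 at 12 months, against 42 to 136 at 2 months (log2 fold change -1.55, adjusted p = 0.0239 from limma). Without 2-month replicate 1 or 4 its adjusted p was 0.0594 or 0.0768, and without 12-month replicate 3 or 4 it was 0.0586 or 0.0699.

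Genes listed as feedback or targets of FGF signals, and genes listed as responsive to VEGF, were counted next. The FGF feedback list holds inhibitors of the Ras and Erk cascade (Spry, Spred, Dusp6 and Il17rd) and the transcription factors Etv1, Etv4 and Etv5. Pdgfrβ, the deleted receptor, is itself a receptor tyrosine kinase, and which receptor set the levels of these genes was not tested. In Pdgfrβ-KO SVF 4 of the 11 tested genes of this list were lower and 1 was higher, beside 4.46% and 4.96% of all tested genes. The median log2 fold change of the list was -0.58, beside -0.013 for all genes. Spred3 had 38 to 57 in Pdgfrβ-KO libraries, against 90 to 119 in 12-month controls (log2 fold change -1.12, adjusted p = 0.00657 from limma), and Spred2 had 515 to 640, against 743 to 1027 (log2 fold change -0.63, adjusted p = 0.013 from limma). These calls held in all 19 alternatives. Spry4 (log2 fold change -0.80, adjusted p = 0.0349) and Il17rd (-0.68, adjusted p = 0.0437) were lower and Etv5 (0.50, adjusted p = 0.0312) was higher in limma, and each lost its call in 7 or 8 of 19 alternatives. The highest adjusted p was 0.0962 for Spry4 without Pdgfrβ-KO replicate 1, 0.123 for Il17rd without 12-month control replicate 3 and 0.0987 for Etv5 with no filter on low values. With age 0 of 11 were called by limma, and 3 had an unadjusted p under 0.05.
Of 10 endothelial genes that respond to VEGF or mark sprouting tips, 3 were lower and 1 was higher in Pdgfrβ-KO SVF. Of all tested genes, 4.46% were lower and 4.96% higher. The median log2 fold change of the 10 was -0.44, beside -0.013 for all genes. Esm1, a secreted proteoglycan of tip cells, had 18 to 31 in Pdgfrβ-KO libraries, against 54 to 183 in 12-month controls (log2 fold change -1.81, adjusted p = 0.0103 from limma). Dll4, which restrains sprouting through Notch, had 738 to 1217 in Pdgfrβ-KO libraries, against 1675 to 3259 in 12-month controls (log2 fold change -1.04, adjusted p = 0.0151 from limma). Both were called in all 19 alternatives, and the groups of both were apart. Apln, a peptide hormone gene of tip cells, was lower (log2 fold change -1.36, adjusted p = 0.03 from limma, and 0.0629, 0.0595 or 0.0636 without 12-month control replicate 1, 2 or 3 and 0.0627 without Pdgfrβ-KO replicate 3). Plvap, a gene of fenestrated capillaries, was higher, with 6856 to 13750 in Pdgfrβ-KO libraries, against 4690 to 6720 in 12-month controls (log2 fold change 0.70, adjusted p = 0.0467 from limma). Its call was lost in 8 of 19 alternatives, with an adjusted p of up to 0.109, the value for Plvap without 12-month control replicate 1. With age 3 of the 10 were lower, Nrarp (log2 fold change -0.80), Unc5b (-0.56) and Plvap (-0.49), beside 11.4% of all tested genes. Nrarp was called in all 19 alternatives and Unc5b and Plvap in 12 of 19.

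**Figure D4:**
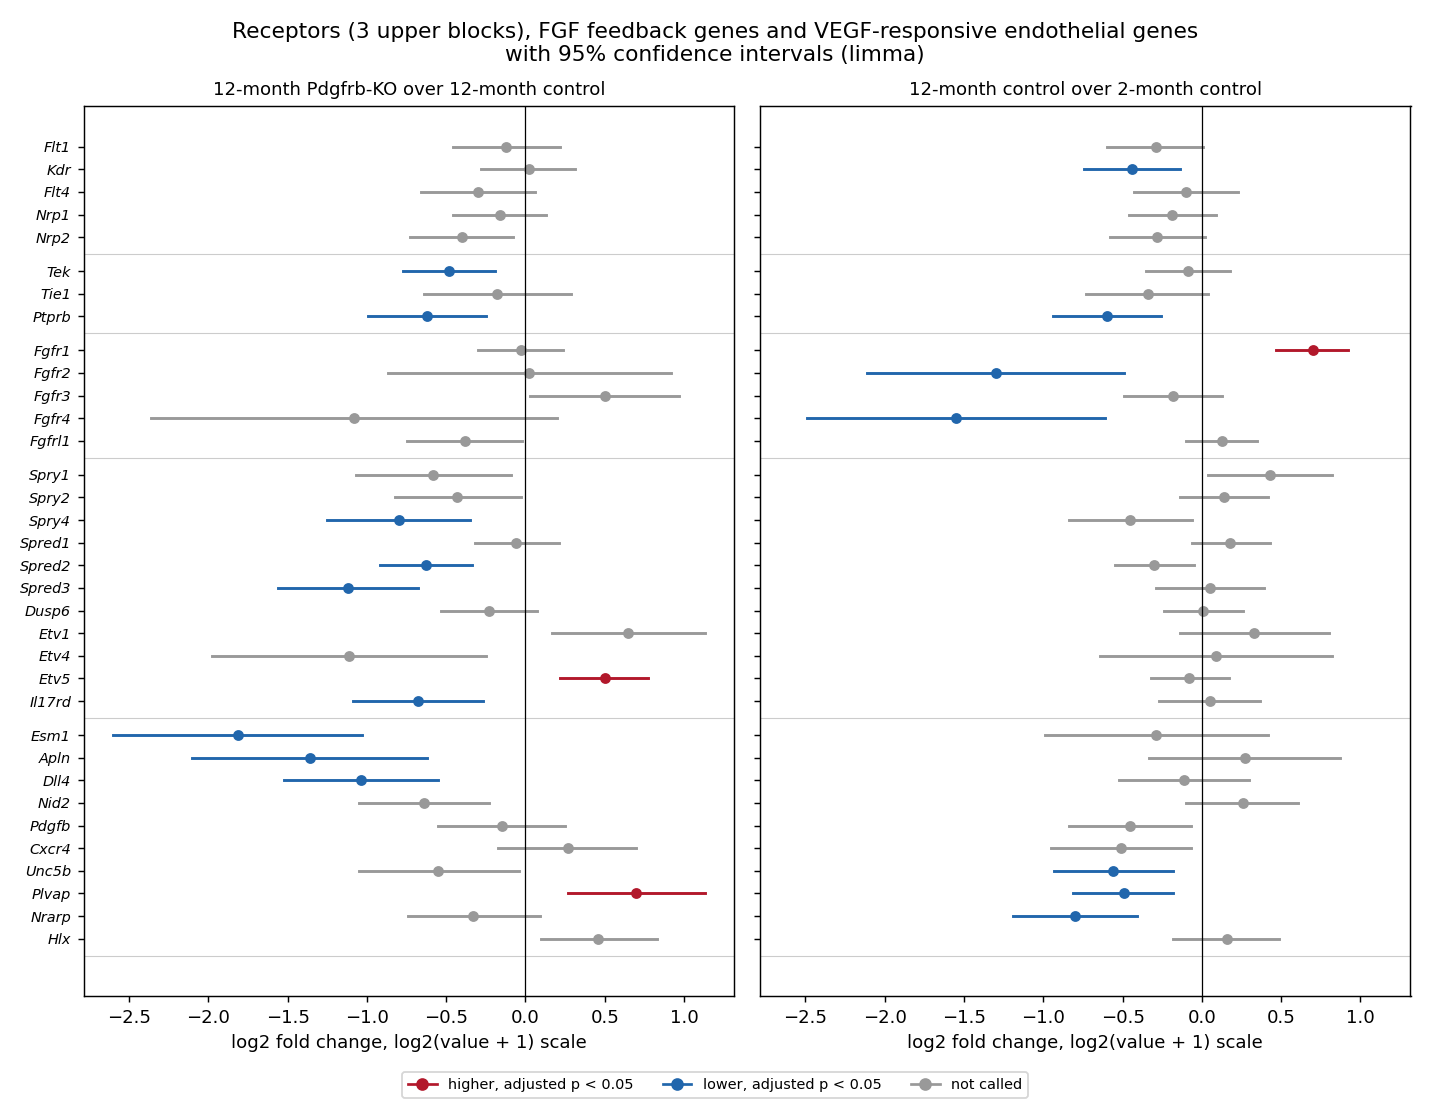
Log2 fold changes (x axis, on the log2(value + 1) scale) with 95% confidence intervals of VEGF, angiopoietin and FGF receptor genes, FGF feedback genes and VEGF-responsive endothelial genes (y axis, 1 block per list from the top), for 12-month Pdgfrβ-KO over 12-month control (left) and 12-month control over 2-month control (right). Colours give the call of limma at an adjusted p under 0.05. Among the genes called lower in the knockout panel are Esm1 (-1.81), Apln (-1.36), Spred3 (-1.12) and Dll4 (-1.04), and Fgfr1 (0.70) stands at the right of the age panel.

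Most other listed genes of the 3 families were under the filter. Of 20 listed, 7 passed the filter in the knockout comparison, and 0 were called by limma (1 at an unadjusted p under 0.05). With age, 8 were tested, and Fgf9 and Fgf16 were higher and Angpt4 and Fgf21 lower. Fgf9 had 52 to 134 in 12-month controls, against 29 to 48 in 2-month controls (log2 fold change 1.01, adjusted p = 0.0284 from limma). The call of Fgf9 was lost in 6 of 19 alternatives, with an adjusted p of up to 0.0849, the value without 2-month replicate 4. Angpt4, a further ligand of Tek, had 18 to 49 at 12 months, against 55 to 109 at 2 months (log2 fold change -1.21, adjusted p = 0.0176 from limma, and 0.0546 or 0.0542 without 2-month replicate 2 or 4). Fgf16 (9 to 27 at 12 months, against 3 to 11 at 2 months) and Fgf21 (1 to 5 at 12 months, against 11 to 14 at 2 months) were near the floor of the measurement. Fgf21 passed the filter through the 2-month libraries alone and Fgf16 mostly through the 12-month libraries, so that the filter fixed their directions and nothing is read from these calls.
Heparan sulphate proteoglycans, which hold FGF and VEGF at the cell surface and in matrix, had 1 of 10 higher and 2 lower in Pdgfrβ-KO SVF. Of all tested genes, 4.96% were higher and 4.46% lower. Sdc3 had 4505 to 5971 in Pdgfrβ-KO libraries, against 2123 to 3479 in 12-month controls (log2 fold change 0.85, adjusted p = 0.0101 from limma), and Gpc6 had 154 to 207, against 263 to 399 (log2 fold change -0.89, adjusted p = 0.00666 from limma). Hspg2, the perlecan gene of basement membranes, had a log2 fold change of -0.54 (adjusted p = 0.0434 from limma), and its call was lost in 8 of 19 alternatives, with an adjusted p of up to 0.116 for Hspg2 without 12-month control replicate 3. With age 2 of 10 were called, Sdc2 higher (0.74) and Agrn lower (-0.92), each in all 19 alternatives, beside 22.7% of all tested genes. Of 7 genes of ligand processing and release, such as the VEGF-C protease gene Adamts3 and its cofactor gene Ccbe1, 0 were called in Pdgfrβ-KO by limma (1 at an unadjusted p under 0.05), and with age Pcsk5, a convertase gene, was lower (log2 fold change -0.52, adjusted p = 0.00835 from limma).

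Vegfa is a classical target of the hypoxia-inducible factors, and genes of that pathway were set beside it. In Pdgfrβ-KO SVF, 2 of 9 hypoxia factors and hydroxylases were called, the hydroxylase gene Egln2 (log2 fold change 0.57) and Hif3a (1.44), both higher. Of 17 rows of hypoxia-induced genes, 1 was higher, the mitophagy gene Bnip3 (log2 fold change 0.52, adjusted p = 0.0139 from limma), and 1 was lower, the hexokinase gene Hk2 (-0.42, adjusted p = 0.0349 from limma). Their median log2 fold change was 0.07, beside -0.013 for all tested genes, of which 9.42% were called. The part of the pathway in the Vegfa level was not tested. Egln2, Hif3a and Hk2 lost their calls in 6, 7 and 9 alternatives, with an adjusted p of up to 0.0728 for Egln2 without 12-month control replicate 3 and of up to 0.0963 for Hif3a and 0.0983 for Hk2 without 12-month control replicate 1 (limma). With age, where Vegfa was not called, Egln3 (-0.61), the glucose transporter gene Slc2a1 (-0.64), Pdk1 (-0.54), Kdm3a (-0.34) and P4ha1 (-0.31) were lower and Bnip3 was higher (0.66). These were 1 of the 9 factors and hydroxylases and 5 of the 17 rows, where 22.7% of all tested genes were called. The medians with age were -0.01 for the 9 and 0.03 for the 17, beside -0.008 for all genes. P4ha1 lost its call in 6 of 19 alternatives, with an adjusted p of 0.0587, 0.0786 or 0.0673 without 2-month replicate 2, 3 or 4, 0.0593 without 12-month replicate 4, 0.0515 without trend and robust estimation and 0.0607 with the replicate number as a block. Kdm3a lost it in 2 (0.0601 without 2-month replicate 2 and 0.0674 in the joint fit of 12 libraries) and Pdk1 in 1 (0.0513 without trend and robust estimation, all from limma).

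Markers of the cells that could make or read these ligands moved between the groups. Beside the counts below stand 9.42% of all tested genes called after knockout and 22.7% with age. Over 10 genes, the summed markers of blood endothelium had 83137 to 159249 normalized counts in Pdgfrβ-KO libraries, against 105523 to 172588 in 12-month controls and 109223 to 148811 in 2-month controls. One gene, Fabp4, which adipocytes also make, carried most of these sums, with means of 83834 in Pdgfrβ-KO and 69008 in 12-month controls. Without Fabp4, a change made after the values were seen, the 9 other markers summed to 29791 to 48359 in Pdgfrβ-KO libraries, 40474 to 74650 in 12-month controls and 56846 to 80339 in 2-month controls. In Pdgfrβ-KO 0 of the 10 were called by limma (3 at an unadjusted p under 0.05), with a median log2 fold change of -0.22. Cdh5, the cadherin gene of endothelial junctions, had 5402 to 8296 in Pdgfrβ-KO libraries, against 8349 to 13829 in 12-month controls, which did not overlap (log2 fold change -0.65, adjusted p = 0.0568 from limma). With age 1 of 10, Vwf, was lower, and the median was -0.26. Sox17 and Sox18 had positive log2 fold changes after knockout (0.37 and 0.54), and neither was called. The part of endothelial markers in the levels of Vegfc, Angpt2, Tek, Dll4 and Esm1 after knockout and of Kdr with age was not tested.
Mural cell markers, 11 genes, summed to 24335 to 30181 in Pdgfrβ-KO libraries, 29439 to 50923 in 12-month controls and 47488 to 53976 in 2-month controls. By limma 0 of 11 were called in Pdgfrβ-KO (6 at an unadjusted p under 0.05, median log2 fold change -0.46), and with age 7 were lower and 2 higher. The mural sum moved in the same direction as Angpt1, Angpt2 and Vegfa after knockout, and its part in their decrease was not tested. Replicate 2 of the 12-month controls had the highest mural, endothelial and progenitor sums, and also the highest Angpt2, Vegfc and Pdgfrb. Without it the log2 fold change of Angpt2 stayed called and that of Vegfc did too.
Fibroblastic progenitor markers, 12 genes, summed to 81999 to 90639 in Pdgfrβ-KO libraries, 100838 to 127070 in 12-month controls and 68008 to 84823 in 2-month controls, in the same order as Fgf2. Dcn alone averaged 31734 in Pdgfrβ-KO, 50708 in 12-month controls and 27194 in 2-month controls, a large part of these sums. After knockout 3 of 12 were lower (Dcn, Dpp4 and Pi16) and 1 higher (Clec11a). The median log2 fold change of the 12 after knockout was -0.09, beside -0.013 for all genes. With age 5 were higher and 1 lower, and the part of these cells in the levels of Fgf2 was not tested. Macrophage markers, 7 genes, summed to 49417 to 78671 in Pdgfrβ-KO libraries, 24857 to 36355 in 12-month controls and 11996 to 17535 in 2-month controls, with 6 of 7 higher after knockout and 5 of 7 higher with age. The macrophage sum and Vegfd were both ordered with Pdgfrβ-KO highest on average and 2-month controls lowest, and this relation was not tested.
Lymphatic endothelium, the main reader of VEGF-C and VEGF-D, had marker sums over 6 genes of 3167 to 3585 in Pdgfrβ-KO libraries, 1733 to 2677 in 12-month controls and 1266 to 2272 in 2-month controls. Of 5 tested, 1, Lyve1, was higher after knockout, while the median of the 5 was -0.34. Lyve1 alone averaged 2511 in Pdgfrβ-KO and 945 in 12-month controls, where the sums averaged 3414 and 2128. Lyve1 is also made by macrophages, whose markers rose in the Pdgfrβ-KO libraries. Mmrn1, Pdpn, Prox1 and Reln had negative log2 fold changes after knockout and were not called. Prox1 had 53 to 72 in Pdgfrβ-KO libraries, against 80 to 117 in 12-month controls (-0.63, adjusted p = 0.0775 from limma). With age Prox1 was lower (log2 fold change -0.97), Pdpn was higher (1.09) and 3 were not called. Skeletal muscle markers, 5 genes, were lower in 5 of 5 after knockout, with sums of 558 to 1475 in Pdgfrβ-KO libraries, against 2318 to 5808 in 12-month controls, and their part in the ligand changes was not tested. Mature adipocyte markers, 7 genes, summed to 3208 to 5704 in Pdgfrβ-KO libraries and 3650 to 5524 in 12-month controls, against 2229 to 2717 in 2-month controls. With age 5 of the 7 were higher (median log2 fold change 1.29), and after knockout 1 of 6 tested, Retn, was lower. Schwann cell markers were lower in 5 of 5 with age, with sums of 4065 to 4679 in 12-month controls, against 9398 to 12259 in 2-month controls. Mast cell markers were higher in 6 of 6 with age, with sums of 4442 to 8660 in 12-month controls, against 2042 to 3105 in 2-month controls. After knockout 1 gene of each list was called, Sox10 and Kit, both lower. The median log2 fold change after knockout was -0.14 for the Schwann cell markers and 0.46 for the mast cell markers. Mast cell sums were 6948 to 11583 in Pdgfrβ-KO libraries, against 4442 to 8660 in 12-month controls. The part of these cells in the changes of Vegfd, Fgf1, Fgf2 and Fgf10 with age was not tested.

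**Figure D5:**
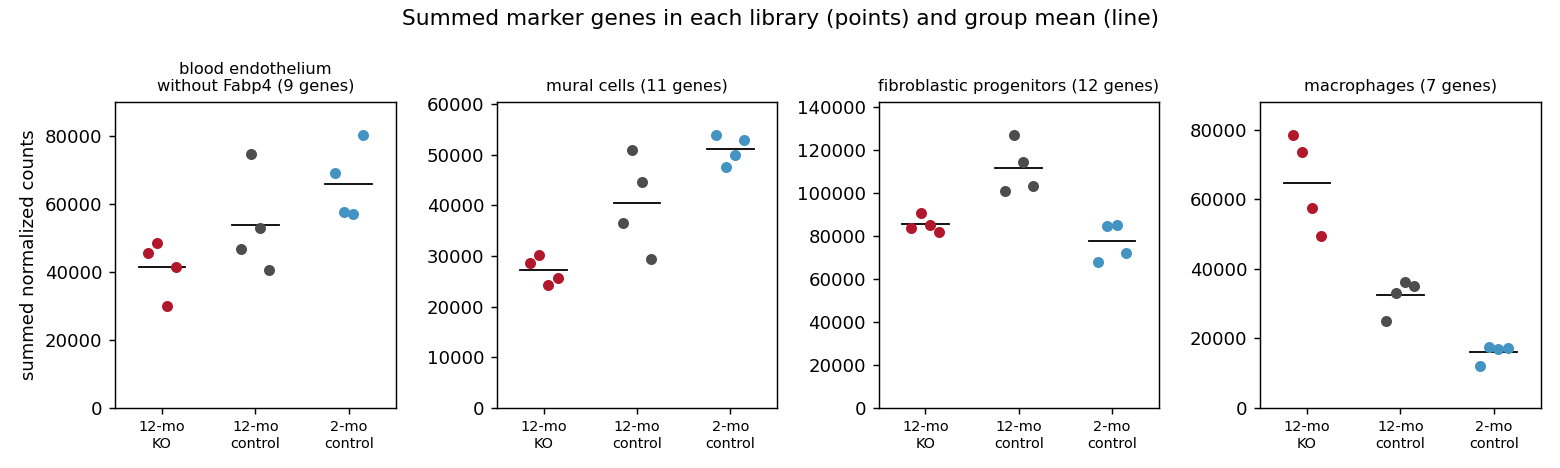
Summed normalized counts (y axis, from 0) of marker genes of blood endothelium (without Fabp4), mural cells, fibroblastic progenitors and macrophages in 12-month Pdgfrβ-KO, 12-month control and 2-month control SVF, with 1 point per library and a line at the group mean. Endothelial sums (29791 to 48359) and mural sums are lowest on average in Pdgfrβ-KO (mural 24335 to 30181), and macrophage sums there (49417 to 78671) lie above both control groups.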

How the data were processed

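Gene expression of inguinal SVF was read from 2 deposited tables, one with the controls of both ages and one with the 12-month controls and the Pdgfrβ-KO mice, and 0 other columns of values per sample were found. The deposited unit is a score: the authors scaled gene counts by DESeq2 1.26.0 size factors and rounded them to whole numbers. Per the labels, the authors used Trim Galore 0.6.0 and cutadapt for trimming and STAR 2.7.0e for mapping, on GRCm38. The library kit was directional, and whether counting used strand is not given in the sources used here. The 12-month controls have equal values in both tables in 100% of genes. Depth was estimated from the gaps that rounding leaves in low values.

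Each comparison was fitted on its own 8 libraries with limma 3.58.1 in R 4.3.3 (trend and robust, two-sided) on log2(value + 1), a scale that understates the change of low genes. Genes reaching a value of 10 in 4 or more of the 8 libraries were tested, and called at a Benjamini-Hochberg adjusted p under 0.05. The code was tested on simulated data. The libraries are labelled as separate biological replicates. The named genes are the 10 ligands, Pdgfrb, the called genes of the receptor, ligand, proteoglycan, processing, feedback and hypoxia lists, and the 3 genes nearest to each called ligand (predicted genes left out, and 1 gene not reported here); called genes of the VEGF-responsive and marker lists were named after their values were seen. Members and lists were chosen with earlier results of these data known. Symbols come from the knockout table, since 27 in the other had been turned into dates. Aldoa stands in 2 rows. Alternatives were pseudocounts of 0.5 and 5, other filters and scalings, no trend and robust estimation, weights per library, a joint fit, a replicate block and each library left out. Tables and figures used Python 3.11.15, pandas 2.3.3, numpy 2.4.6, scipy 1.17.1 and matplotlib 3.10.9.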

Additional observations from a re-analysis of the deposited data

How the results depend on the processing

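The directions of all 10 ligand genes stayed as reported in both comparisons under 19 alternatives each. After knockout, 180 values of the ligand genes kept their side of the threshold and 10 lost the call (9 for Vegfa, 1 for Angpt2), and with age 171 kept it, 18 lost it (9 for Vegfb, 6 for Fgf10, 3 for Fgf2) and 1 gained it (Angpt1). Vegfc, Angpt1 and Fgf10 after knockout and Vegfd and Fgf1 with age were called throughout. In the joint fit of 12 libraries 3 ligand genes were called with age, 1 of them lower, the genes called lower with age were 1206, and 2600 genes were called after knockout, 1292 higher and 1308 lower. With single libraries left out, 859 to 1878 genes were called after knockout (451 to 1054 higher, 344 to 824 lower), with 3 to 5 ligand genes (2 to 4 lower), and 2356 to 3961 with age (1101 to 2010 lower), with 3 to 5 ligand genes (1 to 2 lower). Fgf16 and Fgf21 had no value under some of these settings, because they fell under the filter, nor did Hif3a with a mean of at least 50. Which library changed a call stands beside each ligand, and the cause was not tested.

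The deviations of same-numbered libraries from their group means had correlations of -0.02 to 0.37 for knockout and control pairs, over 0.1 in 2 of 4 pairs (0.37 and 0.23), and of -0.22 to 0.16 for the ages, over 0.1 in 1 of 4. As not every pair was over 0.1, the replicate numbers were not taken to pair the mice. With the replicate number as a block, 2380 genes were called after knockout, 1180 of them lower, and 3116 with age, and the ligand genes called were 5 after knockout and 4 with age.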
